A study of Mus musculus with 7 samples.

Results

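The genes described here are the nuclear-encoded subunits of the respiratory chain and ATP synthase. They were taken from the array by symbol: names that begin with Nduf followed by a, b, c, s or v and a digit, Sdha to Sdhd, and names that begin with Uqcr, with Cox and a digit from 4 to 8, or with Atp5. The rule found 81 of the 18193 genes on the array, and 77 of them passed the filter on low signal and were among the 12125 genes tested. By complex they were 35 genes of complex I, 4 of complex II, 8 of complex III, 17 of complex IV and 17 of complex V, grouped by symbol.

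The samples were macrophages of C57/Bl6 mice, sorted after papain digestion of the brain on GFP and on F4/80, a macrophage surface protein. One group of 3 arrays came from normal brain of mice aged 8 weeks. The other group of 4 arrays came from GL261 tumours (Gl261 in the labels), a transplantable mouse glioma line, grown for 21 days after injection into the brain of mice with transplanted GFP bone marrow. Whether mice of the normal brain group had also received labelled marrow is not stated, nor are the age of the tumour mice and whether replicates came from separate mice. The p-values thus cover only how far these arrays differ from each other, which may be technical.

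The respiratory chain sits in the inner mitochondrial membrane. Complex I takes electrons from NADH and complex II takes them from succinate, ubiquinone carries them to complex III, and cytochrome c carries them on to complex IV, which reduces oxygen. Complexes I, III and IV pump protons as electrons pass, and complex V, the ATP synthase, uses the returning protons to make ATP. In macrophages the use of this chain is known to differ between activation states, and succinate oxidation at complex II is one of the steps studied in inflammatory activation.

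Values are log2(signal + 6) of the deposited MAS5 signal. The 2% trimmed mean signal was close to 500 on every array, and the background level, taken from unspiked bacterial control probe sets, was 4.19 to 4.70 on the log2 scale. Of 10 macrophage markers, 0 were called higher and 1, Cx3cr1, was called lower in GL261 by limma, and their summed signal was 88893 to 119442 in normal brain and 71972 to 102313 in GL261. Several sets of markers of other cells differed between the groups, and other sets overlapped between them. Neutrophil markers summed to 39599 to 50865 in normal brain and 16416 to 22805 in GL261, with 6 of 6 tested called lower, and red cell precursor markers to 9421 to 16097 against 76.9 to 4498, with 2 of 3 called lower. Markers of oligodendrocyte precursors and glioma cells summed to 105 to 381 against 999 to 1719, with 4 of 6 called higher, and those of dividing cells to 2476 to 3275 against 4762 to 10102, with 3 of 5 called higher. B cell markers summed to 4003 to 5134 against 662 to 1304 (4 of 4 called lower). Endothelial markers summed to 2890 to 3812 against 730 to 2121 (3 of 7 called lower). In the endothelial list 2 went the other way without being called. They were Pecam1 (log2 fold change 1.23 in GL261, adjusted p = 0.127) and Kdr (0.43, adjusted p = 0.647). T and NK cell markers summed to 1893 to 3422 against 2931 to 4887, with overlap (2 of 5 called higher). Neuron markers summed to 287 to 362 against 153 to 1054 (1 of 5 called higher). Astrocyte markers summed to 1278 to 3793 against 1644 to 3369 (0 of 7 called). Oligodendrocyte markers summed to 3927 to 8199 against 1921 to 4603 (1 of 4 called lower). These 3 sets overlapped between the groups as well. The Gapdh 3' to 5' ratio, a sign of RNA integrity, averaged 2.41 (SD 0.024, n = 3) on the normal brain arrays and 1.75 (SD 0.13, n = 4) on those of GL261 (two-sided exact permutation p = 0.0286, the smallest that 3 against 4 arrays allow). The actin 3' to 5' ratio overlapped, at 1.43 to 1.64 in normal brain and 1.36 to 1.52 in GL261 (two-sided exact permutation p = 0.143). The part of these differences in the results was not tested. In sorted bulk samples, fewer cells of a type and less RNA per cell cannot be told apart.

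Of the 77 tested subunits, 8 were called higher in GL261 macrophages and 0 were called lower, by limma at a Benjamini-Hochberg adjusted p under 0.05. The 8 were Ndufb2 and Ndufb8 of complex I, Sdhb of complex II, Uqcrc1 and Uqcr10 of complex III, and Atp5md, Atp5b and Atp5l of complex V. Their increases were between 1.43-fold and 1.84-fold. That is 10.4% of the tested subunits, against 10.1% of all genes called in either direction, 5.92% called higher and 4.2% called lower. The share called in either direction is thus near the background. At an unadjusted p under 0.05 there were 23 subunits higher and 1 lower, which is 31.2% against 26.1% of all genes. That excess was absent among genes of strong signal. With a mean log2 value of at least 10 the shares were 30% of 70 subunits (21 higher and 0 lower) and 34.1% of all genes. The calls rest on the scaling and the variance model: with each array centred on its median, or with variances that do not follow the mean signal, 0 of the 77 were called. The fold changes themselves moved little: after centring, Atp5md was at 0.86 (adjusted p = 0.0720) and Sdhb at 0.81 (adjusted p = 0.0621), and the median over the subunits was 0.18. Without the trend fold changes are the same by construction, and the adjusted p was 0.0670 for Atp5md and 0.0730 for Sdhb. At an unadjusted p under 0.05, 13 were then higher and 1 lower after centring, and 18 higher and 0 lower without the trend.

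The direction was shared more widely than the calls. The fold change was above 0 in 54 of 77 subunits (70.1%) against 52.8% of all genes, and the median log2 fold change was 0.19 against 0.038. In 22 subunits every GL261 array was above every normal brain array (13.1% of all genes had this order), and in 1 subunit, Ndufa6, every GL261 array was below. Together these are 29.9% of the subunits, against 23.4% of all genes whose groups did not overlap. Most subunits had strong signal, which lowers their error: the median standard error was 0.18 on the log2 scale for the subunits and 0.32 for all genes. Among the 4549 genes with a mean log2 value of at least 10, 14.7% were called and 7.98% were called higher, and 8 of the 70 subunits in that range (11.4%) were called higher.

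**Figure D1:**
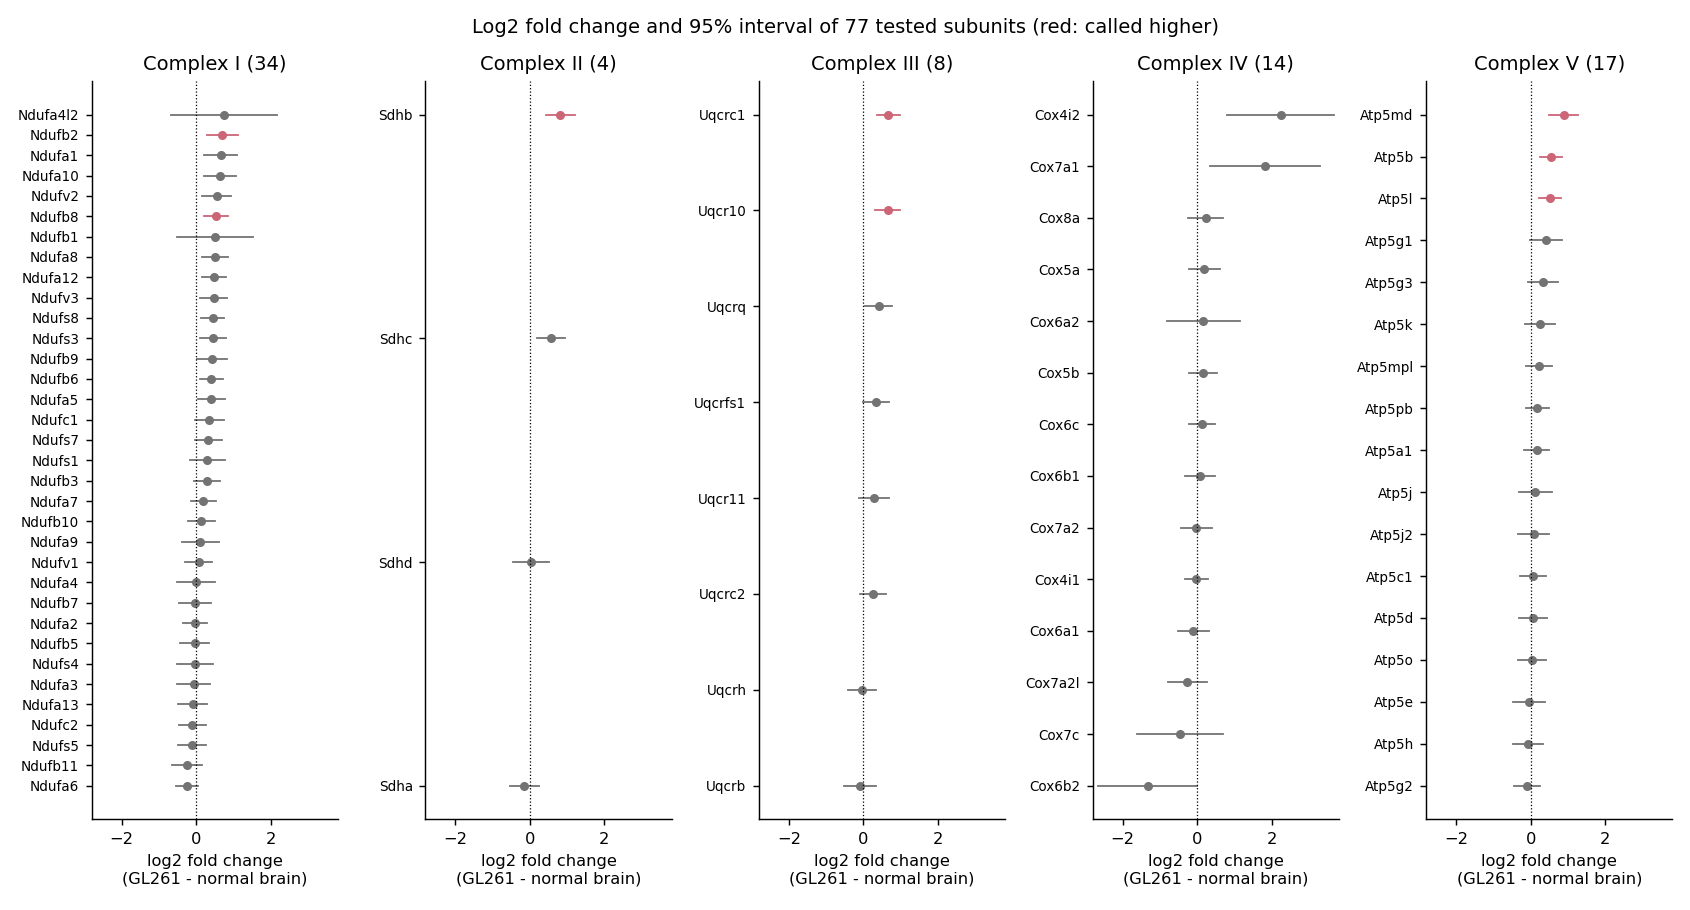
Log2 fold change (GL261 minus normal brain) of each of the 77 tested subunits with its 95% interval from limma, in a panel per complex; red marks the 8 called higher. The points lie to the right of 0 for 23 of 34 subunits of complex I, 3 of 4 of complex II, 6 of 8 of complex III, 8 of 14 of complex IV and 14 of 17 of complex V; Cox4i2, Cox7a1 and Cox6b2 lie farthest from 0 and have wide intervals.

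Complex I had 2 of 34 tested subunits called higher and 0 lower, with a median log2 fold change of 0.31. The share called higher, 5.88%, is near the 5.92% of all genes. Ndufb2, an accessory subunit of the membrane arm, read 9.40, 9.68 and 9.76 in normal brain and 10.20, 10.39, 10.23 and 10.41 in GL261. The groups did not overlap, and the log2 fold change was 0.69 (SE 0.19, adjusted p = 0.0405, limma). Ndufb8, another accessory subunit of the membrane arm, read 11.19, 11.41 and 11.46 against 11.84, 11.74, 12.11 and 11.88. Here too the groups were apart, with GL261 replicate 3 highest, and the log2 fold change was 0.54 (SE 0.15, adjusted p = 0.0391). Both calls were lost in 6 of 7 fits that left out 1 array; the adjusted p rose at most to 0.0997 for Ndufb2, without GL261 replicate 4, and to 0.113 for Ndufb8, without GL261 replicate 3.

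A further 10 complex I subunits had all GL261 arrays above all normal brain arrays without being called. With the called pair this order held in 12 of 34, against 13.1% of all genes. Ndufa1, a small membrane-arm subunit, read 11.72, 10.95 and 11.86 in normal brain and 12.01, 12.18, 12.35 and 12.12 in GL261. The low second normal brain array widened its spread, and its log2 fold change of 0.66 had an adjusted p of 0.0636. Ndufa10 had a log2 fold change of 0.64 (adjusted p = 0.0604), Ndufv2, the iron-sulfur core subunit of the NADH-binding module, of 0.55 (adjusted p = 0.0777), and Ndufs8, a core subunit that carries iron-sulfur clusters, of 0.44 (adjusted p = 0.0718). The other core subunits were Ndufs3 at 0.44 (adjusted p = 0.103), Ndufs7 at 0.32 (0.248), Ndufs1 at 0.30 (0.399) and Ndufv1 at 0.068 (0.836). All of these lay above 0 and none was called.

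Ndufa6, an accessory subunit, ran the other way. It read 11.70, 11.51 and 11.73 in normal brain and 11.41, 11.32, 11.48 and 11.38 in GL261, so that all GL261 arrays were lower by a small margin. Its log2 fold change was -0.25 (SE 0.14, adjusted p = 0.272). Ndufb11 of the membrane arm read 13.29, 13.48 and 13.68 against 13.07, 12.89, 13.48 and 13.49 (log2 fold change -0.25, adjusted p = 0.418). Its groups overlapped through GL261 replicates 3 and 4. Ndufs5 read 11.32, 11.83 and 11.26 against 11.24, 11.43, 11.39 and 11.37 (log2 fold change -0.11), with the groups overlapping. Ndufb4 was left out by the filter: its only probe set of a single gene read 5.92, 4.35 and 4.52 against 3.45, 3.63, 2.77 and 2.65, above background on 1 of 3 and 0 of 4 arrays. Brighter probe sets for Ndufb4 carry several symbols and fall outside the rule; the brighter of them had a log2 fold change of 0.076.

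Complex II, succinate dehydrogenase, had 1 of 4 subunits called higher, against 5.92% of all genes. Sdhb, the iron-sulfur subunit that passes electrons on to the membrane part, read 10.89, 10.56 and 10.86 in normal brain and 11.39, 11.36, 11.80 and 11.82 in GL261. Normal brain averaged 10.77 ± 0.18 (SD, n = 3), GL261 averaged 11.59 ± 0.25 (SD, n = 4), and the groups did not overlap. The log2 fold change was 0.82 (SE 0.17, 95% interval 0.44 to 1.20), a 1.77-fold increase with an adjusted p of 0.0142 by limma. The call was lost in 1 of 7 fits that left out 1 array (adjusted p = 0.0523 without GL261 replicate 3).

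The membrane anchor Sdhc read 10.44, 10.87 and 10.60 in normal brain and 11.32, 11.15, 11.38 and 10.95 in GL261. These values did not overlap, and the log2 fold change of 0.57 had an adjusted p of 0.0579. For the other anchor, Sdhd, the brightest probe set read 12.19, 12.20 and 12.30 against 12.52, 12.24, 11.60 and 12.66, with GL261 replicate 3 lowest of all (log2 fold change 0.027). A dimmer probe set for Sdhd read 10.76, 10.96 and 11.13 against 11.34, 11.49, 11.86 and 11.71, a log2 fold change of 0.65 that was called higher when every probe set was tested by itself (adjusted p = 0.0486). The pair of Sdhd probe sets thus disagreed on GL261 replicate 3. Sdha, the flavoprotein that holds the succinate site, read 11.49, 12.30 and 11.91 against 11.78, 11.81, 11.78 and 11.66, within the range of normal brain on every GL261 array (log2 fold change -0.14, SE 0.18). A nearly as bright probe set for Sdha read 11.69, 11.49 and 11.46 against 12.04, 11.78, 11.90 and 11.65, with only GL261 replicate 4 inside the normal brain range. Its log2 fold change was 0.30 (SE 0.15, adjusted p = 0.272), so the Sdha probe sets differed in direction and neither was called.

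In complex III, 2 of 8 subunits were called higher, and 5 of 8 had all GL261 arrays above all normal brain arrays; the shares over all genes were 5.92% and 13.1%. Uqcrc1, a core protein of the matrix side, read 10.71, 10.75 and 10.66 in normal brain and 11.22, 11.50, 11.37 and 11.41 in GL261. The normal brain arrays lay within a narrow band (SD 0.041, n = 3) well under the GL261 arrays (SD 0.12, n = 4), and the log2 fold change was 0.67 (SE 0.14, adjusted p = 0.0154, limma). Uqcr10, a small membrane subunit, read 11.11, 11.12 and 10.68 against 11.49, 11.60, 11.72 and 11.66, with normal brain replicate 3 lowest. Its log2 fold change was 0.65 (SE 0.16, adjusted p = 0.026), and the call was lost in 3 of 7 fits that left out 1 array, most without GL261 replicate 3 (adjusted p = 0.0795).

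The other 6 genes of complex III were not called. Uqcrq had a log2 fold change of 0.41 (adjusted p = 0.139), Uqcrfs1, the Rieske iron-sulfur protein, of 0.32 (0.224) and Uqcrc2, the second core protein, of 0.25 (0.350), each without overlap. Uqcr11 was at 0.28 and Uqcrh, the hinge protein near cytochrome c, at -0.037, both with overlap. Uqcrb had the strongest mean signal of all subunits. It read 13.72, 13.96 and 13.92 in normal brain and 13.48, 13.44, 14.05 and 14.12 in GL261, so that GL261 replicates 1 and 2 were lower than every normal brain array and replicates 3 and 4 higher (log2 fold change -0.095, SE 0.19). Cyc1, the cytochrome c1 subunit of complex III, is not named by the rule; it had a log2 fold change of 0.23 (adjusted p = 0.441).

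Complex V had 3 of 17 subunits called higher and 0 lower (17.6% higher, against 5.92% of all genes). Atp5md, a small subunit of the membrane part that is also known as Usmg5 or DAPIT, read 11.09, 11.71 and 11.35 in normal brain and 12.10, 12.12, 12.48 and 12.33 in GL261. It had the largest increase among called subunits: normal brain averaged 11.38 ± 0.31 (SD, n = 3) and GL261 12.26 ± 0.18 (SD, n = 4), without overlap. The log2 fold change was 0.88 (SE 0.17, 95% interval 0.50 to 1.26), a 1.84-fold increase with an adjusted p of 0.0101. Atp5md and Uqcrc1 were called in 7 of 7 fits that left out 1 array, with adjusted p-values of at most 0.0385 and 0.0480.

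Atp5b, the catalytic beta subunit, read 12.21, 12.16 and 12.23 in normal brain and 12.74, 12.57, 12.95 and 12.74 in GL261. Normal brain again formed a narrow band (SD 0.035, n = 3), and the log2 fold change was 0.55 (SE 0.14, adjusted p = 0.0268). Atp5l, subunit g of the membrane part, read 11.39, 11.20 and 11.25 against 11.70, 11.78, 11.85 and 11.85, which is a difference of 0.52 on the log2 scale (SE 0.14, adjusted p = 0.0327). Its groups were also apart. Each of these calls was kept in only 1 of 7 fits that left out 1 array, and without GL261 replicate 3 the adjusted p was 0.0799 for Atp5b and 0.0901 for Atp5l.

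The remaining 14 genes of complex V had log2 fold changes from -0.10 to 0.41 and overlapping groups. The alpha subunit Atp5a1, which forms the catalytic head together with Atp5b, read 12.90, 13.15 and 12.83 in normal brain and 12.93, 12.90, 13.29 and 13.33 in GL261. Its log2 fold change was 0.15 (SE 0.16, adjusted p = 0.582), with only GL261 replicates 3 and 4 above normal brain. The genes for the proton-carrying c subunit were Atp5g1 at 0.41 (adjusted p = 0.20), Atp5g3 at 0.33 (0.300) and Atp5g2 at -0.10 (0.742). Among the stalk and rotor subunits, Atp5c1 (gamma) was at 0.063, Atp5d (delta) at 0.054, Atp5e (epsilon) at -0.049, Atp5o at 0.028 and Atp5pb at 0.18. Atp5h, subunit d of the stalk, read 13.29, 13.44 and 13.73 against 13.19, 13.12, 13.68 and 13.65 (log2 fold change -0.080, SE 0.18).

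**Figure D2:**
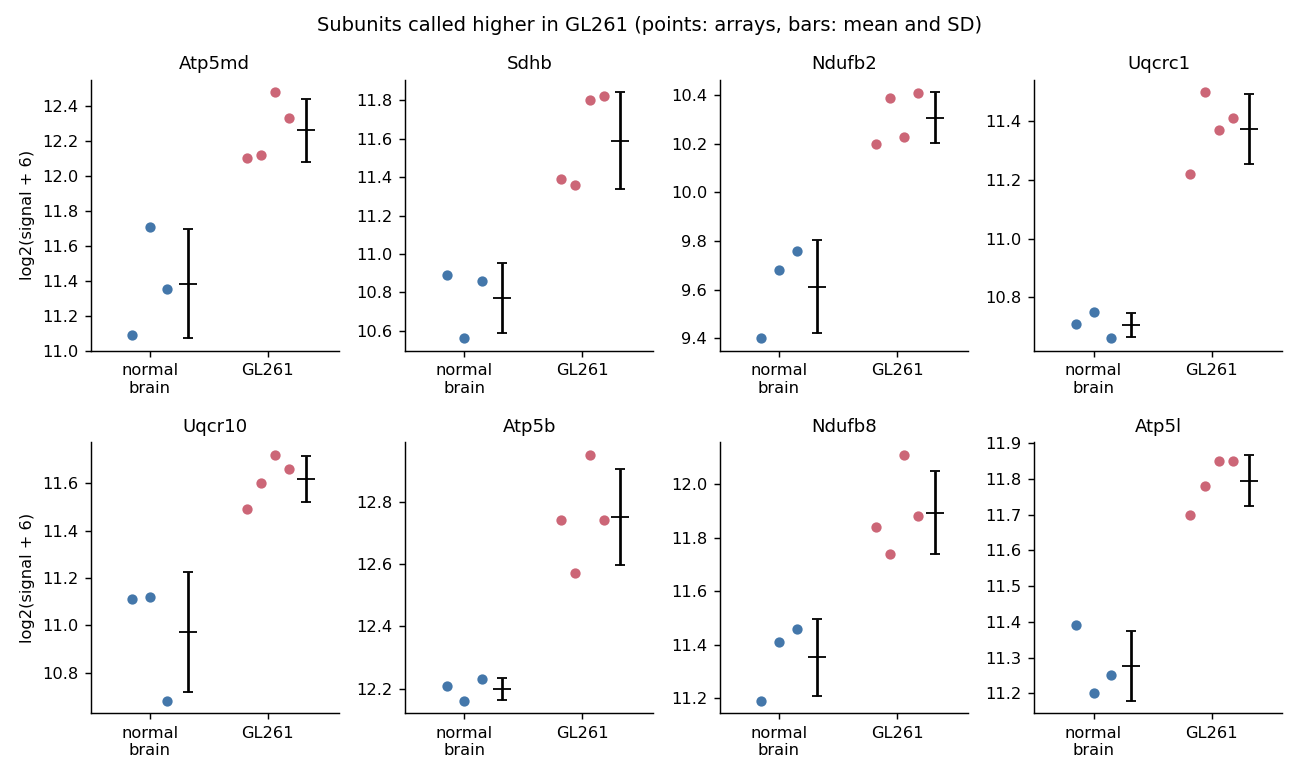
Level on each array, as log2(signal + 6), of the 8 subunits called higher in GL261; blue points are the 3 normal brain arrays, red points the 4 GL261 arrays, and the bars beside them the mean and SD. In each panel the lowest GL261 array is above the highest normal brain array; the axes differ between panels and do not start at 0.

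Promoters of the called subunits are shown because respiratory chain genes are known as targets of NRF1, of the ETS factor GABP (also called NRF2) and of YY1. RefSeq (GRCm38.p6) gave promoters for 66 of the 81 genes, 71 in all. Each lower-case run is 100 bases on the strand of the gene, 5′ to 3′, from 70 bases before the start of the gene to the first 30 bases of the transcript, and capitals mark a motif found by search. They lie at chr19:47090618-47090717 (minus strand) for Atp5md, chr4:140961201-140961300 (plus strand) for Sdhb, chr19:44555413-44555512 (minus strand) for Ndufb8 and chr10:128083237-128083336 (plus strand) for Atp5b. The first pair shows the ETS motif in either orientation, the third the NRF1 core, and the last a called gene with none of the 3 motifs in this stretch.
Atp5md: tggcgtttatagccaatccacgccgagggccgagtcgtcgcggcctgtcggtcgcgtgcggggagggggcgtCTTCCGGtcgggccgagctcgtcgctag
Sdhb: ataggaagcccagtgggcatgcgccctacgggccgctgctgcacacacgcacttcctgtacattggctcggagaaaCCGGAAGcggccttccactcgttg
Ndufb8: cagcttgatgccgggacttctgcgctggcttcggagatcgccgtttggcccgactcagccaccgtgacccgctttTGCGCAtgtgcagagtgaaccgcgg
Atp5b: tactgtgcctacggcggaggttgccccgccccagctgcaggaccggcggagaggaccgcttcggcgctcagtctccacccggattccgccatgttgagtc

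Motifs were searched on both strands of the whole 300-base window, from 250 bases before to 50 after the start. The NRF1 core TGCGCA was present in 18 of 71 promoters of the subunits (25.4%) and in 7.76% of all 32851 promoters. The ETS motif CCGGAAG was present in 17 (23.9%) against 8.86%, and the YY1 motif AAGATGG in 10 (14.1%) against 6.34%. Among the 8 called genes, Atp5l, Ndufb8 and Uqcrc1 held the NRF1 core, Atp5l, Atp5md and Sdhb the ETS motif and Ndufb8 the YY1 motif. No motif contains another, and TGCGCA reads the same on both strands. These are matches of letters in a fixed window, not measured binding. The transcripts of these factors were not called: Nrf1 had a log2 fold change of -0.34 (adjusted p = 0.682) and Gabpa of 0.39 (adjusted p = 0.217). Gabpb1, for the other GABP subunit, was at -0.37 (adjusted p = 0.354) and Yy1 at -0.14 (adjusted p = 0.601).

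Complex IV, cytochrome c oxidase, had 0 of 14 tested subunits called by limma, against 10.1% of all genes in either direction. At an unadjusted p under 0.05 there were 2 higher, Cox4i2 and Cox7a1, and 1 lower, Cox6b2. The median log2 fold change was 0.11, and in 0 of 14 subunits were the groups without overlap, against 23.4% of all genes. These 3 were also the only tested subunits of any complex with a change of at least 2-fold in size, and all are isoforms that are known from particular tissues. Of 8 such isoforms among the subunits, 5 were tested and 0 were called. Cox4i2 and Ndufa4l2 passed the filter, set at 4.93 on the mean of all arrays, only through GL261. Their means were 4.87 and 4.55 in normal brain and 7.11 and 5.30 in GL261, so the filter favours a rise in them.

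Cox4i2, the lung form of subunit IV that is also known to respond to low oxygen, read 3.71, 5.0 and 5.89 in normal brain and 7.22, 5.87, 7.42 and 7.92 in GL261. It was above background on 2 of 3 normal brain arrays and on all 4 GL261 arrays, and the groups met only at normal brain replicate 3 and GL261 replicate 2. The log2 fold change was 2.24 (SE 0.66, 95% interval 0.80 to 3.68, adjusted p = 0.052). The call turned on single arrays: it was made in 2 of 7 fits that left out 1 array, without normal brain replicate 3 (log2 fold change 2.75) and without GL261 replicate 2 (2.66), and missed most without normal brain replicate 1 (1.66, adjusted p = 0.145). With a pseudocount of 58 in place of 6 the log2 fold change was 1.21 and just called (adjusted p = 0.0499). Its widespread counterpart Cox4i1 read 12.96, 12.93 and 13.09 against 12.81, 12.86, 13.04 and 13.17, with a difference of -0.018 (SE 0.14) and overlapping groups.

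Cox7a1, the heart and muscle form of subunit VIIa, read 4.60, 4.34 and 6.84 in normal brain and 6.95, 7.24, 6.24 and 7.88 in GL261. Normal brain replicate 3 lay within the GL261 range, and the log2 fold change of 1.82 (SE 0.68) had an adjusted p of 0.11. Without that array it was 2.61 and called (adjusted p = 0.0255). It was not called in the other 6 fits that left out 1 array, and was lowest without normal brain replicate 2 (1.36, adjusted p = 0.275). The counterpart Cox7a2 read 13.24, 13.41 and 13.67 against 13.13, 13.18, 13.70 and 13.68 (log2 fold change -0.018, SE 0.19). The low values of both isoforms on some arrays are near background, so that the pseudocount shrinks their fold changes. Cox4i2 is also known from pericytes of blood vessels. The summed signal of 7 pericyte and fibroblast markers was 666 to 1808 in normal brain and 2686 to 4415 in GL261 (two-sided exact permutation p = 0.0286). Of these markers, Col1a1, Col3a1 and Dcn were called higher. Pdgfrb (log2 fold change 0.56, adjusted p = 0.508) and Rgs5 (-0.93, adjusted p = 0.368) were not called. Rgs5 was the only 1 of the 7 with a fold change below 0. Striated muscle markers summed to 249 to 288 against 203 to 321 (exact permutation p = 0.743). The part of those cells in the isoforms' levels was not tested.

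Cox6b2, the testis form of subunit VIb, read 9.25, 10.98 and 10.24 in normal brain and 6.90, 9.65, 9.19 and 9.56 in GL261. GL261 replicate 1 was far under the other arrays, and the log2 fold change was -1.33 (SE 0.61, adjusted p = 0.191). Its counterpart Cox6b1 read 13.01, 13.31 and 13.47 against 13.09, 13.08, 13.68 and 13.54 (log2 fold change 0.082). Cox6a2, the heart and muscle form of subunit VIa, read 8.95, 8.61 and 7.20 against 8.78, 8.61, 8.00 and 8.28 (log2 fold change 0.17, adjusted p = 0.854), and Cox6a1 read 13.18, 13.49 and 13.68 against 13.08, 13.06, 13.67 and 13.59 (-0.10). Neither isoform pair was separated between the groups.

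Ndufa4l2, known as a gene induced by low oxygen, read 5.17, 4.53 and 3.94 in normal brain and 3.64, 5.98, 5.90 and 5.66 in GL261. It was above background on 1 of 3 and 3 of 4 arrays, and its log2 fold change of 0.75 had a wide error (SE 0.65, adjusted p = 0.507). Its counterpart Ndufa4, grouped here by its name although its protein is now placed in complex IV, read 11.03, 10.83 and 11.52 against 10.94, 11.66, 11.11 and 10.76 (log2 fold change -0.0094). Cox8a, the widespread subunit VIII, read 10.83, 11.28 and 11.29 against 11.24, 10.94, 11.85 and 11.45 (0.24). Cox7b2, Cox8b and Cox8c, forms known from testis or muscle, were left out by the filter, as their mean log2 values were at most 4.65. Cox7b2 read 4.71, 2.73 and 2.74 against 2.99, 2.94, 2.84 and 3.98, above background on 1 of 3 normal brain arrays and 0 of 4 GL261 arrays. Cox8b read 5.08, 3.76 and 3.71 against 4.64, 3.32, 3.21 and 4.42, above background on 1 array of each group. Cox8c read 5.15, 4.87 and 6.17 against 3.93, 5.28, 3.28 and 3.86, above background on 3 of 3 and 1 of 4 arrays; GL261 replicate 2 overlapped with normal brain, and the untested log2 difference was -1.31.

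**Figure D3:**
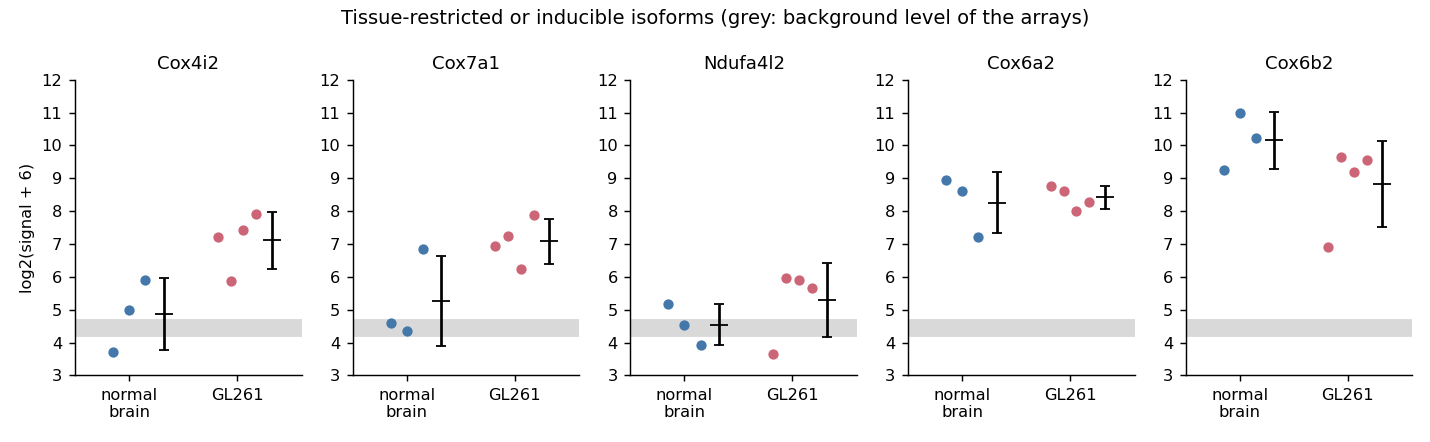
Level on each array, as log2(signal + 6), of the 5 tested tissue-restricted or inducible isoforms; blue points are normal brain, red points GL261, bars the mean and SD, and the grey band the range of the background level over the arrays (4.19 to 4.70). Cox4i2 and Cox7a1 start near background in normal brain and overlap with GL261 at 1 normal brain array, and Cox6b2 has 1 low GL261 array.

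None of the remaining complex IV genes was called. Cox5a was at 0.19, Cox5b at 0.15 and Cox6c at 0.13. Cox7a2l read 12.91, 13.24 and 13.46 in normal brain and 12.65, 12.42, 13.32 and 13.37 in GL261 (log2 fold change -0.26, adjusted p = 0.523). Its GL261 replicates 1 and 2 were the lowest of the 7 arrays. Cox7c read 9.09, 10.45 and 8.39 against 9.94, 8.79, 7.83 and 8.81, a scattered pattern with a log2 fold change of -0.47 (SE 0.53).

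The level of the subunits differed among GL261 arrays as well as between the groups. Each subunit's deviation from its own mean over the 7 arrays was taken, and the median over the 77 tested was -0.22, -0.057 and -0.026 on the normal brain arrays and -0.073, -0.079, 0.30 and 0.24 on the GL261 arrays. GL261 replicates 3 and 4 were thus high, while replicates 1 and 2 lay within the normal brain range. For all genes the same medians were between -0.045 and 0.077. The 8 called subunits were low on all normal brain arrays (-0.37, -0.34 and -0.36) and high on all GL261 arrays (0.17, 0.22, 0.41 and 0.32), which the call itself favours. Of these 8, only Atp5md and Uqcrc1 (2) stayed called without GL261 replicate 3. Leaving out GL261 replicate 4 kept 3 of them, leaving out GL261 replicate 1 kept 4, and leaving out GL261 replicate 2 kept 6. Without normal brain replicate 1, 5 of them stayed called, and without replicate 2 or replicate 3, 4 each. Subunits called in addition were Cox4i2 and Ndufv3 without GL261 replicate 2, Sdhc without normal brain replicate 2, and Cox4i2, Cox7a1 and Ndufa1 without normal brain replicate 3.

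**Figure D4:**
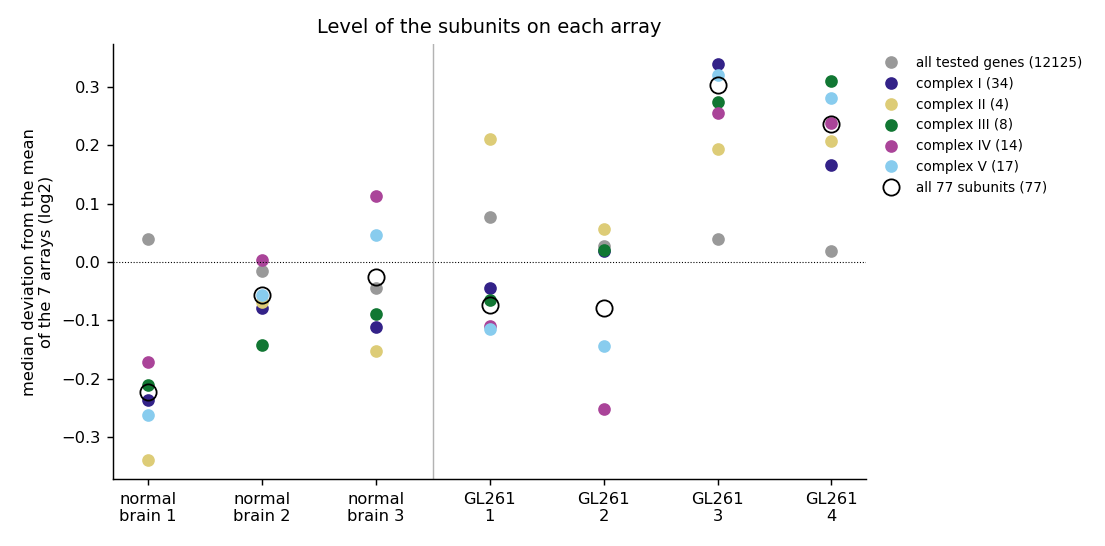
Median deviation (log2) of the subunits from their own mean over the 7 arrays, for each complex, for all 77 tested subunits (open circles) and for all 12125 tested genes (grey). GL261 replicates 3 and 4 have every complex above 0, whereas replicates 1 and 2 have complexes IV and V below 0.

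The difference between GL261 replicates went with the strength of signal, and not in the subunits alone. All 291 genes with a mean log2 value of at least 13 had median deviations of -0.37 and -0.34 on GL261 replicates 1 and 2 and of 0.15 and 0.20 on replicates 3 and 4. The 14 subunits in that range had -0.27, -0.26, 0.28 and 0.27. In the same range the median log2 fold change was -0.23 for all genes and 0.018 for the subunits. From 12 to 13 the medians were -0.092 for 795 genes and 0.063 for 23 subunits, with Atp5b called. From 10 to 12 they were 0.070 for 3463 genes and 0.41 for 33 subunits, and the other 7 called subunits lay there (21.2%, against 9.38% of all genes in that range called higher). In each range, chosen after the values were seen, the median of the subunits was above that of all genes.

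**Figure D5:**
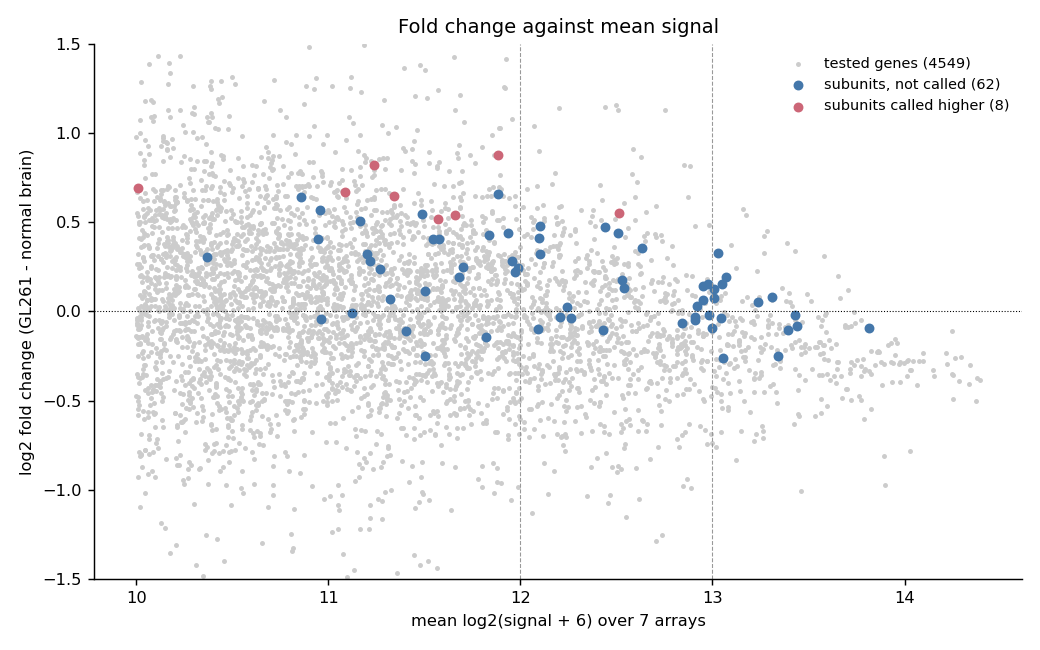
Log2 fold change (GL261 minus normal brain) against the mean log2(signal + 6) over 7 arrays, for 4549 genes with a mean of at least 10 (grey; 63 beyond the axis limits of 1.5 are not drawn), 62 subunits not called (blue) and the 8 called higher (red); dashed lines mark 12 and 13. Grey points drift below 0 towards the right, and 49 of the 70 subunits lie above 0.

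Quantile normalization, which gives all arrays the same distribution of signal, brought the median log2 fold change of all genes to 0.040, -0.0063 and 0.00088 in these ranges, and that of the subunits to 0.37, 0.21 and 0.21. The medians on the arrays were then -0.19, -0.11 and -0.14 in normal brain and 0.10, 0.064, 0.22 and 0.13 in GL261, so that all GL261 arrays lay above all normal brain arrays. Under this scaling 16 subunits were called higher and 0 lower, against 7.07% of all genes called higher. They held 7 of the 8 genes above, without Ndufb2 (adjusted p = 0.0607), and 9 more: Ndufa1, Ndufa12, Ndufc1, Ndufs3, Ndufs8, Ndufv3, Cox5a, Cox6b1 and Atp5g3.

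The choice of probe set mattered for single subunits. The 81 genes had 164 probe sets of a single gene, of which 151 were tested by themselves; 10 were then called higher (6.62%, against 3.75% of all probe sets tested) and 0 lower. For Cox5b, Ndufa12, Ndufs8 and Sdhd a dimmer probe set was called while the brightest, which represents the gene here, was not. The brightest Cox5b probe set had a log2 fold change of 0.15, and a dimmer one read 11.27, 11.26 and 11.32 in normal brain and 11.80, 11.88, 12.09 and 12.05 in GL261 (log2 fold change 0.67, adjusted p = 0.0195). The Ndufa12 probe set that was called read 10.29, 10.06 and 10.25 against 11, 10.90, 11.13 and 10.91 (0.78, adjusted p = 0.0183), and that of Ndufs8 read 10.57, 10.43 and 10.41 against 11.15, 11.45, 11.29 and 11 (0.75, adjusted p = 0.0234). Calls were also lost: Ndufb2 (adjusted p = 0.0548) and Ndufb8 (adjusted p = 0.0565) were not called when every probe set was tested by itself. With the mean of a gene's probe sets, Ndufb2, Ndufb8 and Uqcr10 were not called. The dimmer Uqcr10 probe sets had log2 fold changes of 0.068 and 0.42, not called. Among 35 subunits with more than 1 tested probe set of mean log2 at least 10, the brightest had the lower fold change than the median of the others in 27. The 21 subunits represented by a probe set that may match several transcripts (suffix s_at or x_at) had 0 called and a median log2 fold change of 0.054. The other 56 had 8 called and a median of 0.29. However, the dimmer probe sets called for Ndufa12 and Ndufs8 carry such a suffix themselves. The suffix was not separated from the strength of signal, so the split says nothing about the suffix alone.

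Genes that build or serve the chain were taken from lists of known members. The counts of each list are to be read beside the shares over all genes. Of all genes tested, 5.92% were called higher, 4.2% were called lower and 26.1% had an unadjusted p under 0.05. A fold change above 0 was found in 52.8% of them. Of 19 tested assembly factors of complex I, 1 was called higher and 0 lower, with a median log2 fold change of 0.40. The call was Tmem70, a factor for complexes I and V, which read 8.84, 8.32 and 6.66 in normal brain and 9.71, 9.68, 9.57 and 10.07 in GL261 (log2 fold change 1.82, SE 0.45, adjusted p = 0.026). Among 6 factors of complex V it was again the only call. Of 10 factors of complexes II and III, 0 were called (1 at an unadjusted p under 0.05); Sdhaf2, which attaches FAD to Sdha, was nearest with 0.62 (adjusted p = 0.0502). Of 22 factors of complex IV, 1 was called higher, Cox15, which makes heme a (0.64, SE 0.17, adjusted p = 0.0353). In 19 of 22 (86.4%, against 52.8% of all genes) the fold change was above 0 (median 0.32).

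Among 18 genes for cytochrome c, ubiquinone synthesis and the electron transfer flavoprotein, 2 were called higher and 0 lower, with a median of -0.064. They were Coq7, a hydroxylase of ubiquinone synthesis (log2 fold change 1.67, SE 0.36, adjusted p = 0.0143), and Etfa, which carries electrons from fatty acid oxidation (0.56, SE 0.16, adjusted p = 0.0473). Of 16 enzymes of the TCA cycle and pyruvate dehydrogenase, which supply NADH and succinate, 1 was called higher and 0 lower: Idh3a, a subunit of the NAD-dependent isocitrate dehydrogenase, read 9.50, 9.13 and 8.57 against 10.06, 10.18, 10.31 and 10.41 (1.18, SE 0.25, adjusted p = 0.0142). That is 6.25% of this list called higher, near the 5.92% of all genes. In this list 14 of 16 fold changes (87.5%, against 52.8% of all genes) were above 0, with a median of 0.36. The 2 below 0 were Idh2 and Fh1, neither called. For Idh2 all GL261 arrays were below all normal brain arrays (-0.55, SE 0.16, adjusted p = 0.0547). Fh1 was at -0.056 (adjusted p = 0.907), with overlap.

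The regulators of mitochondrial gene expression had 0 of 19 called, with 1 higher and 3 lower at an unadjusted p under 0.05 and a median of -0.22. Ssbp1, which binds single-stranded mitochondrial DNA, was at -0.51 (adjusted p = 0.0781), and Tfam, which packages mitochondrial DNA, at 0.63 (adjusted p = 0.0855). Of 9 carriers and channels, 0 were called (2 higher at an unadjusted p under 0.05); Slc25a4, an ADP/ATP carrier, was nearest at 0.59 (adjusted p = 0.0618). Only 1 subunit encoded in mitochondrial DNA had a probe set with 1 symbol, ND5 of complex I. It read 13.62, 14.02 and 14.33 in normal brain and 13.60, 13.23, 14.06 and 14.18 in GL261, with overlapping groups; the difference was -0.22 on the log2 scale (SE 0.24, adjusted p = 0.596).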

How the data were processed

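RNA from 3 normal brain and 4 GL261 macrophage samples was measured on Affymetrix mouse arrays. The deposited values are linear signal intensities, 1 per probe set, made by the authors with MAS5, per the submitters' processing notes; the genome build is not given in the sources used here. Of 45101 probe sets, 34945 had 1 gene symbol, 932 several (not used; 9 of them name a subunit), 9160 none and 64 were controls; 0 columns belonged to no sample. The 81 subunits matched RefSeq GRCm38.p6 gene IDs, with 81 symbols unchanged. Where a gene had several probe sets, the one brightest on average was used.

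Signals were turned into log2(signal + 6), with 6 taken at the 20th percentile of the signals; this makes fold changes of dim genes smaller. Genes with a mean above 4.93, the 40th percentile, were tested (12125) with limma 3.58.1 in R 4.3.3, with variances that follow the mean signal, two-sided, Benjamini-Hochberg adjusted over all genes tested; the fit was tested on simulated data. All adjusted p-values are limma's. Measures of the arrays were compared by exact permutation over 35 splits. Background is the 95th percentile of 27 unspiked control probe sets. The number of arrays limits precision. Python 3.11.15 and matplotlib 3.10.9 drew the figures.

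All subunits are accounted for. Values on every array are given for called subunits, up to 8 with the largest rise and 8 with the largest fall, the 5 with the highest mean, the isoforms with their counterparts, and some added after values were seen (Sdhc, Sdhd, Atp5a1, Ndufb4, probe sets, ND5). From each list up to 3 called genes, or the 1 or 2 with the smallest p, are named. Nrf1, Gabpa, Gabpb1, Yy1, Cyc1, Idh2, Fh1 and the markers were added. The subunits and lists were chosen with earlier results of these data known. Alternatives changed the pseudocount, filter, scaling, variance model, probe sets, a replicate block and the arrays used.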

Additional observations from a re-analysis of the deposited data

Results flagged for a closer look

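In 3 of 77 tested subunits (3.9%), 1 of the 4 GL261 arrays lay far from the others: its gap to the nearest array, as a share of the range, was over Dixon's 95% critical value for 4 samples. Chance flags about 1 in 20 such groups. For Cox6b2 the share was 0.833, with GL261 replicate 1 at 6.90 and the others between 9.19 and 9.65. For Ndufa4l2 it was 0.863, with the same array at 3.64 and the others between 5.66 and 5.98. For Ndufa8, a complex I subunit, it was 0.855, with GL261 replicate 3 at 11.66 and the others between 11.26 and 11.32. The normal brain groups of 3 arrays were not tested for this.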

How the results depend on the processing

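The 8 called subunits kept a fold change above 0 under every alternative run. Over the named subunits and alternatives, 327 values kept their side of the threshold, 63 lost a call and 6 gained one. A change of direction that involved a call occurred in 0 values. Some subunits that were not called did change direction. Over the fits that left out 1 array, Cox6a2 ran from -0.36 to 0.52 and Ndufa4 from -0.19 to 0.19. The number of subunits called higher did not hold. It was 0 with median centring and 0 with variances that do not follow the mean signal, where 809 and 455 of all genes were called, 5 without a filter, 5 with the mean of a gene's probe sets and 16 with quantile normalization. It was 2 without normal brain replicate 1 and GL261 replicate 2 together, an alternative chosen after seeing the data. Leaving out 1 array gave 2 to 8 subunits and 542 to 1171 genes called (542, 722 and 730 without GL261 replicates 3, 1 and 4). The median over the subunits stayed between 0.15 and 0.26, though that of complex IV was -0.018 without a filter. Replicate numbers are shared between the groups but same-numbered arrays did not deviate together (correlations 0.079, -0.0075 and 0.031). With the number as a replicate block, which takes no information from GL261 replicate 4, 4 subunits were called higher and 1 lower, Cox6b2 (log2 fold change -1.57, adjusted p = 0.0249).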
